A study of Rattus norvegicus with 6 samples.

Results

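Immediate early genes are transcribed within a short time of a stimulus and without new protein synthesis, and many encode transcription factors that then act on later genes. Some are best known in the brain as reporters of neuronal activity: Fos, Junb, Egr1 and Nr4a1 are induced by synaptic input, depolarization and growth factor signalling, and Fos is widely used in the hypothalamus to map cells activated by osmotic or other stimuli. Others are best known for lasting induction after damage: Jun and Atf3 rise in neurons whose axons have been cut, and Myc is linked to growth and to cells that enter division. The division is one of emphasis, since Jun also responds to activity and Fos, Junb and Egr1 also respond to tissue damage.

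The genes described are these 7 transcription factors, 4 of the activity type (Fos, Junb, Egr1, Nr4a1) and 3 of the injury type (Jun, Atf3, Myc), out of 34510 rows of a table of reads per gene. They were chosen as a list of rat Ensembl identifiers given in the order Fos (ENSRNOG00000008015), Jun (ENSRNOG00000026293), Junb (ENSRNOG00000042838), Egr1 (ENSRNOG00000019422), Atf3 (ENSRNOG00000003745), Nr4a1 (ENSRNOG00000007607) and Myc (ENSRNOG00000004500). The names come from that list: the count table holds identifiers alone, and no table used here pairs them with symbols. All 7 were found, and all 7 passed the filter on low counts that left 17133 rows for testing.

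RNA came from the median eminence of rats, a region at the base of the hypothalamus where neurosecretory axons reach the portal vessels of the pituitary. The strain is labelled S-D in every sample. The PEL group held 3 samples collected 1 day after an operation labelled PEL, an abbreviation that is not spelled out, and the Control group held 3 samples for which the labels name no operation. The labels give no genetic alteration and no age, and do not state whether each sample is a different animal. The p-values therefore reflect the variation among these libraries, part of which may be technical.

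Assigned reads ranged from 16055170 to 17144108 in PEL libraries and from 13756297 to 16746441 in Control libraries. PEL libraries differed more from each other than Control libraries did, with a chi-square statistic per degree of freedom of 15.7 to 24.1 between PEL pairs and 4.50 to 7.83 between Control pairs. The root mean square log2 difference from the Control mean over all 17133 tested rows was 0.573 for PEL replicate 1, 0.680 for PEL replicate 2 and 0.459 for PEL replicate 3, so replicate 3 was the nearest to the Controls by this measure. It was the lowest PEL library for 79.8% of the 722 rows called higher after PEL and the highest for 60.3% of the 184 rows called lower, against 35.6% and 31.5% of all tested rows. Fold changes, class medians, the mean read share, and some of the ratios and likeness values are therefore also given without it. PEL replicate 3 was also the lowest PEL library for all 7 genes, so leaving it out moved their fold changes upward. Class medians, the mean read share, ratios and likeness values are not given with any other library left out. The tissue and the cell types in it were not checked against marker genes, because markers could not be matched to identifiers. In bulk tissue, more cells of a type and more RNA per cell cannot be told apart.

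One day after PEL, Atf3, Myc and Fos rose, Junb, Jun and Egr1 had higher means without passing the test, and Nr4a1 did not have a higher mean. Fitted rises were 5.07-fold for Atf3, 2.98-fold for Myc and 2.24-fold for Fos, all with edgeR adjusted p between 0.0360 and 0.0475 over all 17133 rows. Among the 7 genes 3 were called higher and 0 lower, against 4.21% of all tested rows called higher and 1.07% called lower. Taking the 4 not called (Junb, Jun, Egr1 and Nr4a1) with them, 6 of the 7 had an unadjusted edgeR p under 0.05, all with higher means, where 13.6% of all rows did. The median log2 fold change of the 7 genes was 1.08, beside -0.02 over all tested rows. In 5 of the 7 (Fos, Junb, Jun, Atf3 and Myc) all 3 PEL libraries lay above all 3 Controls, as they did in 16.2% of all tested rows. The calls depended on the tool and on single libraries. With all 6 libraries, the DESeq2 Wald test called 5 of the 7 higher, Jun and Junb in addition, where it called 7.05% of all rows higher. Limma-voom called none of the 7, where it called 2.88% of all rows higher. An unadjusted limma-voom p under 0.05 was reached by 5 of the 7 and by 3806 of 17133 rows, in either direction. The limma-voom adjusted p was 0.0911 for Fos, 0.111 for Atf3 and 0.0817 for Myc. Over 15 alternatives the adjusted p reached 0.174 for Fos and 0.141 for Myc, and over 14 it reached 0.153 for Atf3. With edgeR and without PEL replicate 3, 6 of the 7 were called (all but Nr4a1), where 8.07% of rows were called higher in that fit. Without PEL replicate 2 only Myc was called, against 3.25% of rows. Without PEL replicate 1 or any 1 of the Controls none of the 7 was called by edgeR. In those fits 4 to 6 of them had an unadjusted p under 0.05. That unadjusted p was reached, in either direction, by 3447 of 17395 rows without PEL replicate 1 and 2750 of 17449 without Control replicate 1. It was reached by 2834 of 17425 rows without Control replicate 2 and 3043 of 17425 without Control replicate 3. In those fits the share of rows called higher was also low, at 1.26% without PEL replicate 1, 0.923% without Control replicate 1, 0.958% without Control replicate 2 and 1.3% without Control replicate 3.

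**Figure D1:**
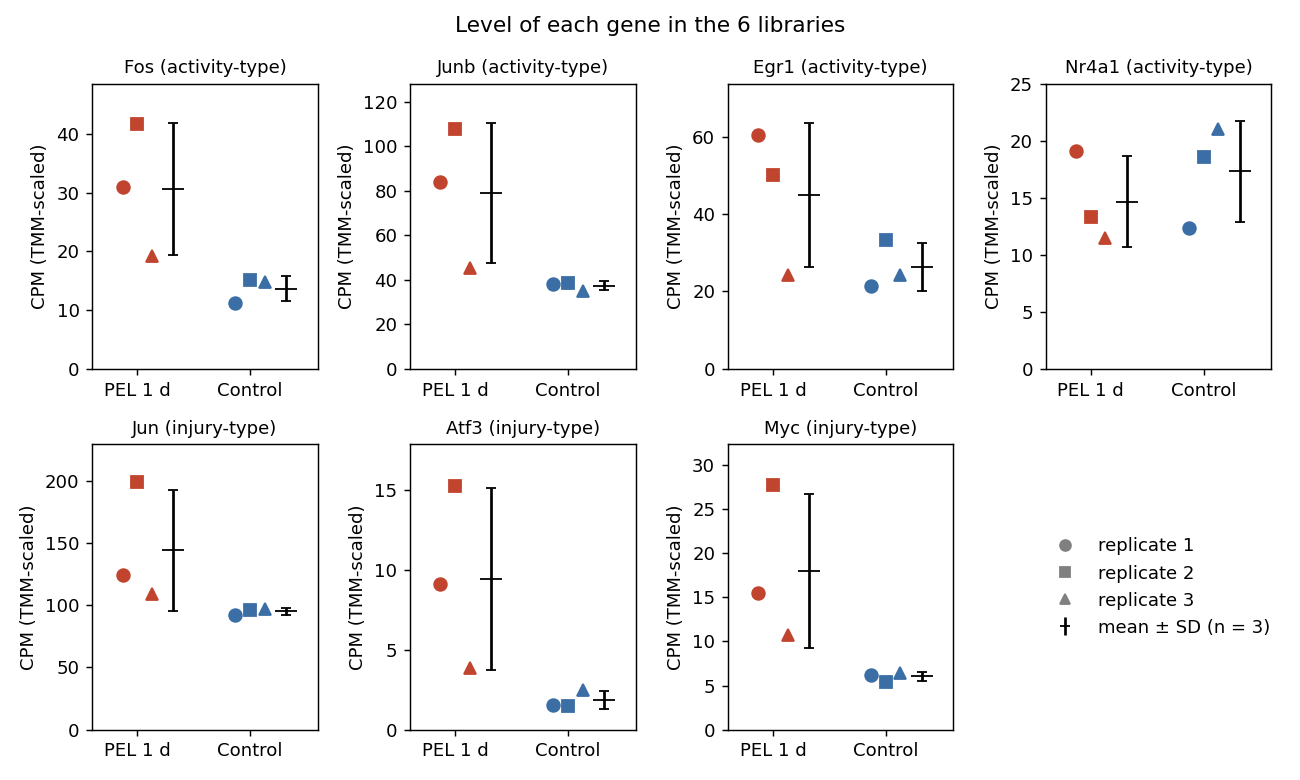
Levels of the 7 genes in TMM-scaled CPM (vertical axis, starting at 0, a separate scale for each gene) in 3 PEL and 3 Control libraries. Symbols mark replicate numbers and bars give the mean ± SD of 3 libraries. The triangle of PEL replicate 3 is the lowest PEL value in all 7 panels, and the PEL and Control points overlap for Egr1 and Nr4a1.

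Levels are given as CPM, reads relative to the library's total of assigned reads, scaled by TMM, which corrects each library for differences in overall composition. They are not corrected for transcript length, so they are compared between libraries and not between genes. Fold changes and their standard errors come from edgeR's quasi-likelihood fit over the whole table, on the log2 scale, PEL over Control, and p-values are two-sided with Benjamini-Hochberg adjustment over all 17133 rows.

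Fos encodes a leucine zipper protein that pairs with Jun proteins to form the AP-1 factor. Its level was 30.9, 41.7 and 19.3 CPM in PEL replicates 1, 2 and 3, against 11.2, 15.1 and 14.7 CPM in Control replicates 1, 2 and 3. All PEL values were above all Control values, with the smallest gap between PEL replicate 3 and Control replicate 2. The means were 30.6 ± 11.2 CPM after PEL and 13.6 ± 2.15 CPM in Controls (SD, n = 3 each). The fitted log2 change of 1.16 (SE 0.26) passed narrowly, with an edgeR adjusted p of 0.0475. It was 1.41 without PEL replicate 3 (edgeR adjusted p = 0.00506), and the 5 fits that left out another library gave 0.88 to 1.24 and none of them called it.

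Junb encodes a Jun family protein that also pairs with Fos. It had 84.1, 108 and 45.6 CPM in PEL replicates 1, 2 and 3 and 38.2, 38.7 and 35.1 CPM in Control replicates 1, 2 and 3. The Controls lay close together, PEL replicates 1 and 2 stood well above them, and PEL replicate 3 was only a little higher than the highest Control. The means of 79.2 ± 31.5 CPM after PEL and 37.3 ± 1.96 CPM in Controls (SD, n = 3 each) gave a log2 fold change of 1.08 (SE 0.27), which missed the threshold (edgeR adjusted p = 0.0598). Junb was called without PEL replicate 3 (log2 fold change 1.36, edgeR adjusted p = 0.00149), and not in the 5 fits that left out another library, whose adjusted p reached 0.183.

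Egr1 encodes a zinc finger factor induced by synaptic activity and growth factors. Its level was 60.4, 50.2 and 24.2 CPM in PEL replicates 1, 2 and 3 and 21.4, 33.2 and 24.1 CPM in Control replicates 1, 2 and 3. PEL replicates 1 and 2 exceeded every Control, whereas PEL replicate 3 lay within the Control range, so the groups overlapped. With means of 44.9 ± 18.7 CPM after PEL and 26.2 ± 6.16 CPM in Controls (SD, n = 3 each), the fitted log2 change was 0.77 (SE 0.32), with an edgeR adjusted p of 0.198. It was called only without PEL replicate 3, at 1.07 (edgeR adjusted p = 0.0160; 0.0160 to 0.439 over 15 alternatives).

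Nr4a1 encodes an orphan nuclear receptor, also known as Nur77, that is induced with Fos and Egr1 in many stimulated cells. It had 19.2, 13.4 and 11.5 CPM in PEL replicates 1, 2 and 3 and 12.4, 18.6 and 21.0 CPM in Control replicates 1, 2 and 3. The groups overlapped, with PEL replicate 1 among the higher Controls and Control replicate 1 among the lower PEL libraries. The means were 14.7 ± 3.98 CPM after PEL and 17.4 ± 4.46 CPM in Controls (SD, n = 3 each), with a fitted log2 change of -0.24 (SE 0.24) and an edgeR adjusted p of 0.587. Pooled reads, 723 after PEL and 824 in Controls, gave a ratio of 0.828 once scaled by library size and TMM. Its counting interval was 0.749 to 0.916. That interval covers counting error only. The spread between replicates was wider than it, and no setting tried called this gene. Its fitted log2 fold change stayed below 0 in all 15 alternatives, between -0.48 and -0.07, and was -0.10 without PEL replicate 3 (edgeR adjusted p = 0.832; 0.315 to 0.922 over the 15 alternatives).

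Promoter windows in the RefSeq table of the GRCr8 assembly, from 250 bases before to 50 bases after the gene's start, matched 3 of the 7 symbols, all of the activity type: Egr1, Junb and Nr4a1. They are shown as a description of these activity-responsive genes, and whether the motifs relate to their levels here was not tested. Some of the elements named below are textbook binding sites of factors that relay such stimuli. Capitals mark 2 motifs, searched on both strands: the CArG box, bound by serum response factor, and TGACG, which reads CGTCA on the other strand and is part of the cyclic AMP response element TGACGTCA. All windows lie on the plus strand, at chr18:26736828-26737127 for Egr1, chr19:40080876-40081175 for Junb and chr7:134259888-134260187 for Nr4a1, and are written 5′ to 3′.
Egr1: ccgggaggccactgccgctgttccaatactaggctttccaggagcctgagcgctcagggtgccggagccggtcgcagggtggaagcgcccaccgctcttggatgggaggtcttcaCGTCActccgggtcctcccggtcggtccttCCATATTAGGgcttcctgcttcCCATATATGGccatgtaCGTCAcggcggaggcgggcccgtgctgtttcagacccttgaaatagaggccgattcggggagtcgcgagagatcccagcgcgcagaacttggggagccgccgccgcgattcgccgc
Junb: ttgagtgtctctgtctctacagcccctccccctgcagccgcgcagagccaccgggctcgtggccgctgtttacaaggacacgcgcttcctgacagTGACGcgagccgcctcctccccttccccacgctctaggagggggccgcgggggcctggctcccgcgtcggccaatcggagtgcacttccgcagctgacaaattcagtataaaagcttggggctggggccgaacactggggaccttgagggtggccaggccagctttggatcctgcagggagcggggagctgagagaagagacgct
Nr4a1: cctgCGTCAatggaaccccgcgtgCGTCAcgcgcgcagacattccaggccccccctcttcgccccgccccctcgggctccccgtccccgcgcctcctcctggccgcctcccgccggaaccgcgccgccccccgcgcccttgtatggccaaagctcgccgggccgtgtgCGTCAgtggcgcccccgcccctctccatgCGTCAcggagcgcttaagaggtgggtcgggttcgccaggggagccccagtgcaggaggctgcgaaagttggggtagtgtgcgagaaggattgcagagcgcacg

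The Egr1 window held 2 CArG boxes, from 105 to 96 and from 83 to 74 bases before the start, and TGACG in 2 places, both on the minus strand, from 135 to 131 and from 66 to 62 bases before the start. The Junb window held no CArG box and TGACG once, on the plus strand from 155 to 151 bases before the start. The Nr4a1 window held no CArG box and TGACG 4 times, on the minus strand, beginning 246, 226, 82 and 53 bases before the start. A CArG box was present in 1.64% and TGACG in 21.2% of all 33469 promoter windows of this length. The full cyclic AMP response element TGACGTCA (1.83% of all windows), the AP-1 site TGANTCA (7.33%) and the EGR site GCGTGGGCG (0.544%) were not in any of the 3 windows. These are matches of letters only. TGACG was added to the search after the windows had been seen, and the windows of Fos, Jun, Atf3 and Myc are not shown.

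Jun, the partner of Fos in AP-1 and a factor linked to axon injury, had 124, 199 and 109 CPM in PEL replicates 1, 2 and 3 and 91.9, 96.6 and 97.4 CPM in Control replicates 1, 2 and 3. All PEL values were above all Controls, and PEL replicate 2 stood far above the other PEL libraries. The means were 144 ± 48.5 CPM after PEL and 95.3 ± 2.95 CPM in Controls (SD, n = 3 each). Its fitted log2 change of 0.60 (SE 0.20), with an edgeR adjusted p of 0.134, was the smallest of the injury-type genes and below those of Fos, Junb and Egr1. It was 0.30 without PEL replicate 2 (edgeR adjusted p = 0.0819) and was 0.76 without PEL replicate 3 (edgeR adjusted p = 0.0380; 0.0180 to 0.324 over 15 alternatives).

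Atf3 encodes a stress-induced member of the ATF/CREB family that marks neurons with damaged axons and is also induced in other stressed cells. Its values rested on few reads, with 147, 248 and 66 reads in PEL replicates 1, 2 and 3 and 21, 24 and 42 reads in Control replicates 1, 2 and 3. In scaled units these were 9.12, 15.2 and 3.88 CPM after PEL and 1.52, 1.499 and 2.49 CPM in Controls. All PEL values were above all Controls, and the lowest PEL library, replicate 3, was next to the highest Control, replicate 3. The means of 9.40 ± 5.67 CPM after PEL and 1.84 ± 0.565 CPM in Controls (SD, n = 3 each) gave a fitted log2 change of 2.34 (SE 0.49; edgeR adjusted p = 0.0371), the rise ranked 131 among 17133 rows. The pooled reads, 461 after PEL and 87 in Controls, gave a 5.002-fold ratio once scaled by library size and TMM. Its 95% exact counting interval was 3.97 to 6.37, which leaves out the spread between libraries. Leaving out PEL replicate 3 gave a log2 fold change of 2.71 (edgeR adjusted p = 0.00421). Leaving out any other library gave 1.82 to 2.64 with adjusted p of 0.0592 to 0.153.

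Myc encodes a helix-loop-helix leucine zipper factor that drives genes of growth and cell division. It had 15.4, 27.7 and 10.8 CPM in PEL replicates 1, 2 and 3 and 6.24, 5.43 and 6.40 CPM in Control replicates 1, 2 and 3. The groups were well apart, with even PEL replicate 3 at 1.68 times the highest Control. The means were 18.0 ± 8.76 CPM after PEL and 6.02 ± 0.518 CPM in Controls (SD, n = 3 each), and the fitted log2 change was 1.58 (SE 0.33) with an edgeR adjusted p of 0.0360, the rise ranked 335 among 17133 rows. Pooled reads of 884 after PEL and 281 in Controls gave a 2.97-fold ratio once scaled by library size and TMM. Its 95% exact counting interval, 2.59 to 3.41, likewise leaves out the spread between libraries. Of the 7 genes, Myc alone was called both without PEL replicate 2 (log2 fold change 1.13) and without PEL replicate 3 (1.84). It was not called without PEL replicate 1 or without any 1 of the Controls, where its log2 fold changes were 1.51 to 1.67 and its adjusted p 0.0931 to 0.141.

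The 2 classes did not separate cleanly. Of the activity-type genes 1 of 4 was called higher (Fos), and of the injury-type genes 2 of 3 (Atf3 and Myc), beside 4.21% of all tested rows. The log2 fold changes spanned -0.24 to 1.16 in the activity type, with a median of 0.93, and 0.60 to 2.34 in the injury type, with a median of 1.58. Without PEL replicate 3 they spanned -0.10 to 1.41 with a median of 1.22 in the activity type, and 0.76 to 2.71 with a median of 1.84 in the injury type, so the ranges overlapped there too. The ranges overlapped because Jun lay below Fos, Junb and Egr1, while Atf3 and Myc lay above all 4 activity-type genes. Measured from the Control mean, the same order of these 2 genes over the activity type was seen in each PEL library taken alone. The log2 change was 2.31 for Atf3 and 1.36 for Myc in PEL replicate 1, where the highest activity-type change was 1.20. It was 3.05 for Atf3 and 2.20 for Myc in PEL replicate 2, against at most 1.61 in the activity type. In PEL replicate 3 it was 1.08 for Atf3 and 0.84 for Myc, against at most 0.50. The members are few and were chosen with earlier results known, so the classes are compared as a description, with no test.

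**Figure D2:**
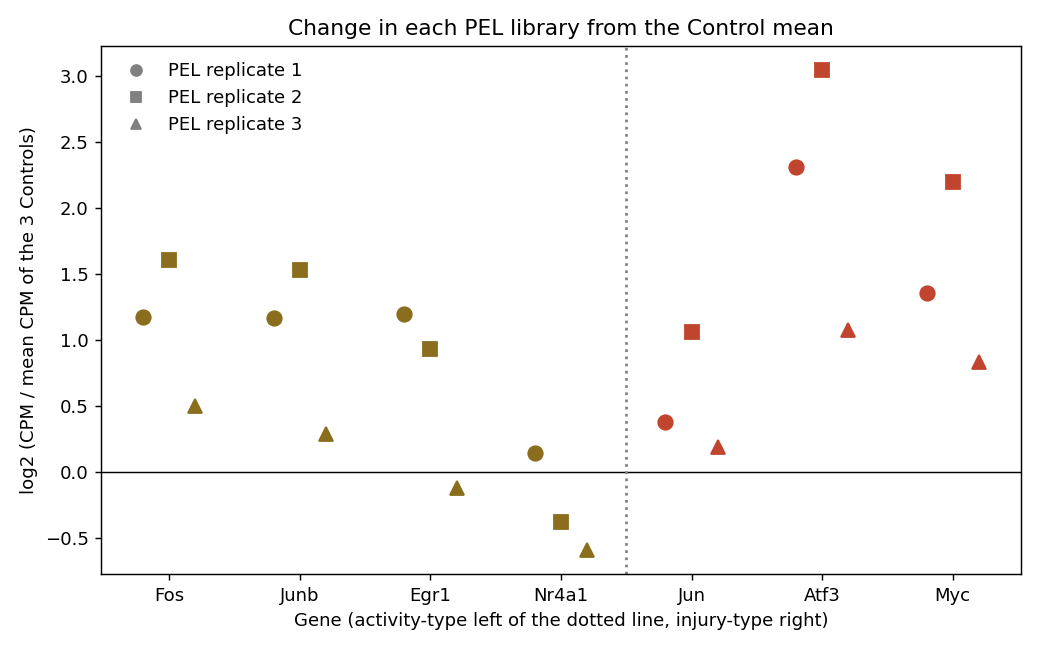
Log2 of the CPM in each PEL library over the mean CPM of the 3 Controls (vertical axis), with activity-type genes left and injury-type genes right of the dotted line and symbols for the 3 PEL replicates. PEL replicate 3 is lowest for every gene and falls below 0 for Egr1 (-0.12) and Nr4a1 (-0.59), while Atf3 and Myc are the highest 2 genes in each library.

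The order of the PEL libraries was shared across the genes. PEL replicate 3 was the lowest PEL library for 7 of 7 genes and PEL replicate 2 the highest for 5 of 7, the exceptions being Egr1 and Nr4a1, which were highest in PEL replicate 1. Over all tested rows PEL replicate 2 was the highest in 36.2% and PEL replicate 3 the lowest in 35.6%. Over the 722 rows called higher, a set chosen on these libraries, the shares were 69.0% and 79.8%. The median log2 change of the 7 genes was 1.18 in PEL replicate 1, 1.53 in PEL replicate 2 and 0.29 in PEL replicate 3, while the median of all tested rows was -0.01 in each of these libraries. In PEL replicate 3 the activity-type median was 0.08 and the injury-type median 0.84. The cause of the difference between PEL libraries was not tested.

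Together the 7 genes took 0.0340 ± 0.0120% of assigned reads after PEL and 0.0199 ± 0.00138% in Controls (SD, n = 3 each). The shares were 0.0336%, 0.0463% and 0.0222% in PEL replicates 1, 2 and 3 and 0.0183%, 0.0210% and 0.0203% in Control replicates 1, 2 and 3. All PEL shares lay above all Control shares, and the PEL mean without replicate 3 was 0.0399%. The exact two-sided permutation test over samples gave p = 0.1, the smallest that 3 against 3 allows. The sum gives most weight to Jun, with 7102 reads after PEL and 4455 in Controls. Next was Junb, with 3892 and 1739 reads, and edgeR called neither gene with all libraries.

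The genes also differed in how far the libraries of a group spread. In Controls the coefficient of variation, the SD as a percentage of the mean, was 3.10% for Jun, 5.26% for Junb and 8.60% for Myc, close to or below the median of 7.75% over all tested rows. It was 15.8% for Fos, 23.5% for Egr1, 25.7% for Nr4a1 and 30.8% for Atf3. Egr1, Nr4a1 and Atf3 were thus more variable in Controls than 85.1%, 86.9% and 90.5% of tested rows. For Atf3 this rests on 21 to 42 reads in a library, where counting error is larger. After PEL every one of the 7 was more variable than the median row (12.3%), from 27.1% for Nr4a1 to 60.3% for Atf3. These PEL values are given with all 3 libraries only.

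**Figure D3:**
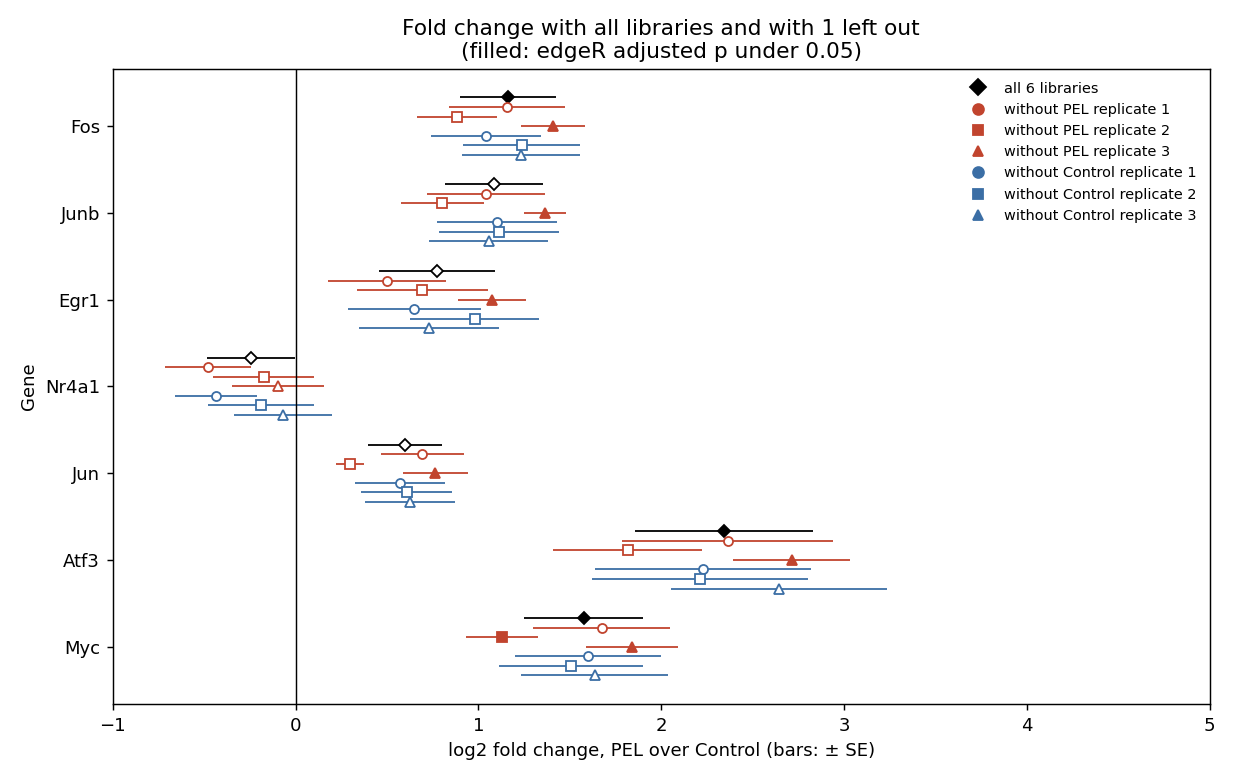
Log2 fold change of PEL over Control with its standard error (horizontal axis) for each gene, with all 6 libraries and with each library left out in turn, filled where the edgeR adjusted p was under 0.05. Without PEL replicate 3 all genes but Nr4a1 are filled, and without PEL replicate 1 or any 1 of the Controls no gene is.

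Ratios of reads between 2 of the genes within a library do not depend on library size or scaling, and are compared here only between libraries. Atf3 reads per Fos read were 0.295, 0.365 and 0.201 in PEL replicates 1, 2 and 3 and 0.136, 0.0996 and 0.169 in Control replicates 1, 2 and 3. All PEL ratios were higher, and on average the ratio was 2.11-fold higher after PEL (2.49-fold without PEL replicate 3). Fos reads per Jun read were 0.249, 0.209 and 0.177 in PEL replicates 1, 2 and 3 and 0.122, 0.156 and 0.151 in Control replicates 1, 2 and 3, on average 1.48-fold higher after PEL (1.61-fold without PEL replicate 3) with no overlap between the groups. Fos reads relative to Jun reads were thus higher in each PEL library than in any Control. Fos reads per Nr4a1 read showed the widest gap within the activity type, at 1.61, 3.11 and 1.67 in PEL replicates 1, 2 and 3 and 0.901, 0.809 and 0.699 in Control replicates 1, 2 and 3, on average 2.55-fold higher after PEL (2.81-fold without PEL replicate 3). Egr1 reads per Nr4a1 read were 3.15, 3.75 and 2.10 after PEL and 1.73, 1.78 and 1.15 in Controls, in the same order of replicates, again without overlap. For Fos and Junb the groups overlapped, at 0.367, 0.386 and 0.423 Fos reads per Junb read in PEL replicates 1, 2 and 3 and 0.292, 0.389 and 0.419 in Control replicates 1, 2 and 3. The largest differences were in Atf3 reads per Nr4a1 read, 5.38-fold higher after PEL on average (6.98-fold without PEL replicate 3), and in Myc reads per Nr4a1 read, 3.27-fold higher (3.64-fold without it). With each pair written so that the average ratio was higher after PEL, the groups did not overlap in 13 of the 21 pairs of the 7 genes and overlapped in 8. The pairs share genes and are not independent. The share of non-overlapping pairs among all tested rows was not computed, so the counts of 13 and 8 only describe these pairs. Over all 21 pairs the smallest exact two-sided permutation p was 0.1, the smallest this design allows, and 0.162 after Benjamini-Hochberg adjustment over the 21 pairs. None of these ratio differences therefore passed a test, and for Fos over Junb the p was 0.7.

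**Figure D4:**
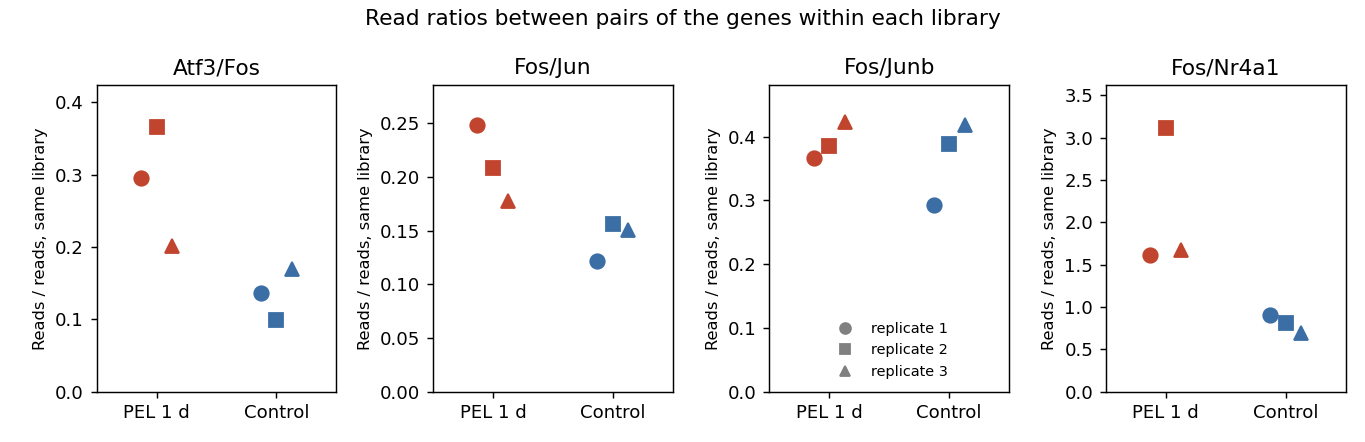
Reads of 1 gene per read of another in the same library (vertical axes, starting at 0) for 4 pairs, in 3 PEL and 3 Control libraries with symbols for replicate numbers. The PEL and Control points are apart for Atf3/Fos, Fos/Jun and Fos/Nr4a1 and overlap for Fos/Junb.

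Likeness between genes was measured as the root mean square difference of their log2 changes from the Control mean over the 6 libraries, where 0 would be the same profile. The closest pair was Fos and Junb at 0.18, followed by Fos and Myc at 0.34 and Junb and Egr1 at 0.34. The gene closest to Atf3 was Myc at 0.57, and the gene closest to Jun was Junb at 0.38. The most distant pair was Atf3 and Nr4a1 at 1.80, and the gene nearest to Nr4a1 was Jun at 0.71. Without PEL replicate 3 the closest and the most distant pair were the same, at 0.18 and 1.83. Pairs across the classes were thus among both the nearest and the farthest. Among 903 other rows called in either direction, the row nearest to Fos was ENSRNOG00000058105, at a distance of 0.10. Its level was 87.1, 118 and 57.2 CPM in PEL replicates 1, 2 and 3 and 34.8, 40.5 and 37.4 CPM in Control replicates 1, 2 and 3 (log2 fold change 1.22, edgeR adjusted p = 0.0279). The row nearest to Atf3 was ENSRNOG00000003895, at a distance of 0.27, with 2.60, 4.60 and 1.71 CPM in PEL replicates 1, 2 and 3 and 0.580, 0.625 and 1.01 CPM in Control replicates 1, 2 and 3 (log2 fold change 1.99, edgeR adjusted p = 0.0449). That row's CPM was below that of Atf3 in every library, so its values rest on even fewer reads. Both rows were picked for their likeness, so their changes are a description, and the tables used here give them no gene name.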

How the data were processed

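The authors deposited raw read counts per gene for 6 median eminence RNA libraries, with no normalization. Per the submitters' processing notes, HISAT2 2.0.5 was the aligner and featureCounts 1.5.0-p3 the counter, and DESeq2 1.16.1 is listed too. For the build, annotation release and strand setting, the entry is: not given in the sources used here. Overlapping or antisense genes may therefore share reads.

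TMM factors were computed over all 34510 rows, rows were filtered by filterByExpr (minimum count 10), and PEL was compared with Control by the quasi-likelihood F test of edgeR 4.0.16 in R 4.3.3, group as the only term, called at an adjusted p under 0.05. Standard errors are the absolute log2 fold change over the square root of F. The fit was tested on simulated counts. Counting intervals are 95% exact binomial intervals on reads pooled within each group, scaled by library size and TMM factor. They reflect counting error alone and leave out the spread between libraries. Duplicate PCR reads are not separate molecules, so counting error may be larger than the intervals show. Alternatives used DESeq2 1.42.0, limma 3.58.1, other scalings and filters, the replicate number as a block, and each library left out. Medians, shares, ratios and likeness without PEL replicate 3 were added after seeing the data. Figures were drawn with matplotlib 3.10.9.

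The members, their classes and the tests were chosen with earlier results of these data known. All 7 members are named. The 1 called row nearest to Fos and the 1 nearest to Atf3 were named by the rule for identifiers without symbols: 0 identifiers matched the reference gene table of 47357 rows (GRCr8). Planned lists of related and cell type marker genes need symbols and were not run, and the Jun and Junb proteins were not compared.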

Additional observations from a re-analysis of the deposited data

How the results depend on the processing

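Directions held for all 7 genes in every alternative that tested them, which for genes whose groups do not overlap is no sign of stability, and Nr4a1 was called in none. Calls did change: Fos, Atf3 and Myc lay just inside the threshold and Junb just outside. The DESeq2 Wald test called 1648 rows against 906, and 5 of the 7 genes against 3, adding Jun (log2 fold change 0.60) and Junb (1.09). Limma-voom called 0 of the 7, with 5 at an unadjusted p under 0.05, beside 3806 of 17133 rows in either direction. It gave log2 fold changes of 1.09 for Fos, 2.14 for Atf3 and 1.46 for Myc. Fos was not called with library size alone (1.15), and Junb was called with no filter (1.08). Atf3 was not tested under a filter of 5 CPM in 3 samples. That fit called 2 of the 6 genes it tested, beside 5.95% of its 13028 rows in either direction.

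Adding a replicate block for the sample number, edgeR called 544 of 17133 rows (3.18%) and 0 of the 7. An unadjusted p under 0.05 was reached by 6 of the 7 and by 3353 of the 17133 rows, in either direction. The blocked log2 fold changes were 1.11 for Fos, 2.18 for Atf3 and 1.47 for Myc. Deviations from the group means correlated at 0.00078, -0.067 and -0.066 between same-numbered libraries, and no PEL library correlated best with the Control of its own number.

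Leaving out 1 library gave 173 to 2092 called rows and 0 to 6 of the 7 genes. Log2 fold changes then lay at 0.88 to 1.41 for Fos, 0.80 to 1.36 for Junb, 0.50 to 1.07 for Egr1, -0.48 to -0.07 for Nr4a1, 0.30 to 0.76 for Jun, 1.82 to 2.71 for Atf3 and 1.13 to 1.84 for Myc. The cause was not tested. Scaling moved the median log2 fold change of all rows by -0.01 for library size alone. With 3 libraries a group, a gene can differ by a moderate amount and remain uncalled. Why Junb, Jun, Egr1 and Nr4a1 were not called was not tested.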
